A study of Mus musculus with 36 samples.

Results

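Ctla2a and Ctla2b are a pair of neighbouring mouse genes that encode small protease inhibitors. They were taken from the arrays by their symbols, as spots annotated with exactly 1 of these symbols, and each gene had 1 spot, so the pair makes up 2 of 15388 spots and 2 of 6971 named genes. The pair was selected on its measured log2 ratios, which were lower on hypoxia days than on recovery days. That difference and the level of each phase are therefore given as a description with no test. The whole lungs of BALB/c mice were studied in 9 groups, each set against a time-matched control on 4 spotted 2-colour cDNA arrays, 36 arrays in all. In 5 groups the mice had been held at 0.5 atm for 1, 3, 7, 14 or 21 days. In the other 4 groups 21 days at 0.5 atm had been followed by 1, 3, 7 or 14 days at sea-level pressure, and these are called days 22, 24, 28 and 35. Lungs of 5 exposed mice were pooled, as were those of 5 control mice. Whether the 4 arrays within a day used separate pools is not given in the labels, so their spread may be technical.

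Every value below is a log2 ratio of exposed over control lung, in which 0 means equal amounts, and negative values are taken as lower in the exposed lung. That direction is likely rather than settled, being read from the sequence in which the submitters name samples and dyes. A ratio gives no level, so the abundance of either transcript in control lung, and the presence of lung markers as such, could not be read from these values. In whole lung, fewer cells of a type and less RNA per cell cannot be told apart. Both spots had a value on all 36 arrays, and across arrays 14186 to 15042 of 15388 spots had one.

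The Ctla2 proteins resemble the pro-region of cathepsin L, the stretch that keeps this lysosomal cysteine protease inactive until it is cut off, and the Ctla2a protein inhibits cathepsin L. Both genes were first cloned from activated mouse T lymphocytes and mast cells. Ctla2a is also known as a transcript of vascular endothelium, which makes up a large share of the cells of the lung. The genes have been described in rodents.

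In the RefSeq annotation of GRCm38.p6, Ctla2b lies at chr13:60895351-60897934 and Ctla2a at chr13:60934155-60936625, both on the minus strand, with 36220 bases between them. Within 500 kb on either side the annotation lists 23 genes, the pair included, of which 14 code for proteins. Among these 14 are 7 genes named after cathepsins (Cts), which include the placental cathepsins Ctsj, Ctsq, Ctsr, Cts6, Cts7 and Cts8, and Tpbpa and Tpbpb, proteins of the trophoblast, lie beside the pair. The promoter windows of the pair are shown because the genes had nearly the same course on the arrays. Each window runs from 250 bases before to 50 bases after an annotated start, in the direction of transcription, from RefSeq and GRCm38.p6 (chr13:60936576-60936875 for Ctla2a and chr13:60897398-60897697 for Ctla2b, minus strand). The Ctla2b window lies wholly inside the annotated gene, which extends upstream to 60897934. The bases before that outer end of Ctla2b were not examined. Capitals mark TGACTCA, the site of AP-1 factors, and TGACGT, the start of a cyclic AMP response element.
Ctla2a: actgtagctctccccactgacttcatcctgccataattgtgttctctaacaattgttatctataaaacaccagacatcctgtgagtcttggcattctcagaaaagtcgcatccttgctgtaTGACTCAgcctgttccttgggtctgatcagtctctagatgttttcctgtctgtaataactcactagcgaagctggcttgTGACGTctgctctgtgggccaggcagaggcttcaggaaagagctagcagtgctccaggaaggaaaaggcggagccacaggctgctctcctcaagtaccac
Ctla2b: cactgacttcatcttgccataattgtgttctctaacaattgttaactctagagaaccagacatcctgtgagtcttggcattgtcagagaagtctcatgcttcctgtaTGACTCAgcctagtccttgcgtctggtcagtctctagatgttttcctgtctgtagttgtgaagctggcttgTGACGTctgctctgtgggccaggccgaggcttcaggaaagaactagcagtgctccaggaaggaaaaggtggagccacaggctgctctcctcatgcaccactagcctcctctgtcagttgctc
The windows were alike, with 255 identical bases of 278 aligned, which is 91.7 percent, and 1 internal gap. Counted from the start, TGACTCA began at position -129 in Ctla2a and at -143 in Ctla2b, and TGACGT began at -50 and at -72. Of 32851 promoter windows in the table, 5.2 percent held TGACTCA and 7.51 percent held TGACGT on either strand. These 2 motifs were picked after the sequences had been read. The cores of the hypoxia response element, ACGTG and GCGTG, were found on neither strand of the windows of the pair, against 19.6 and 32.4 percent of all windows. A match, or none, is a description of these letters and does not show whether a factor binds. A further annotated start of Ctla2a lies a short way downstream, and its window held the same motifs.

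During hypoxia both genes were below the control on every array. At day 1 Ctla2a had ratios of -0.73, -0.65, -0.55 and -0.49 in replicates 1 to 4. At day 3 the ratios were -0.64, -0.91, -0.77 and -0.66, and at day 7 they were -0.67, -0.70, -0.84 and -0.79. The means of days 1, 3 and 7 were thus -0.60 ± 0.11, -0.74 ± 0.13 and -0.75 ± 0.08 (SD, n = 4 arrays each), with overlapping arrays. At day 14 Ctla2a had -0.78, -0.36, -0.82 and -1.03, a mean of -0.75 ± 0.28 and the widest spread of any day. At day 21 it had -0.39, -0.50, -0.64 and -0.19, with a mean of -0.43 ± 0.19, the highest of the hypoxia days.

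Ctla2b had ratios of -0.67, -0.54, -0.64 and -0.57 at day 1. At day 3 it had -0.70, -0.061, -0.67 and -0.78. Replicate 2 of day 3 stands well above the other arrays of its day for Ctla2b, while on the same array Ctla2a had its lowest value of that day. At day 7 Ctla2b had -0.94, -0.82, -0.89 and -0.66, and at day 14 it had -0.96, -0.66, -0.61 and -1.09. Days 7 and 14 were the lowest for this gene, at -0.83 ± 0.12 and -0.83 ± 0.23. At day 21 the values were -0.22, -0.59, -0.76 and -0.38 (mean -0.49 ± 0.24), against means of -0.60 ± 0.06 at day 1 and -0.55 ± 0.33 at day 3.

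On the first day back at sea-level pressure both genes were above the control on every array. At day 22 Ctla2a had ratios of 0.076, 0.09, 0.14 and 0.25, and Ctla2b had 0.056, 0.13, 0.075 and 0.17. The means were 0.14 ± 0.08 and 0.11 ± 0.05, which lay 0.57 and 0.59 above those of day 21, the last day of hypoxia. The later day means were again below the control. At day 24 Ctla2a had -0.19, -0.11, -0.16 and -0.22, and Ctla2b had -0.25, -0.22, -0.19 and -0.13. At day 28 Ctla2a had 0.041, -0.38, -0.33 and -0.23, and Ctla2b had -0.033, -0.40, -0.50 and -0.22. Replicate 1 of day 28 was the highest of its day for both genes. At day 35 Ctla2a had -0.054, -0.066, -0.16 and -0.15, and Ctla2b had 0.17, -0.021, -0.11 and -0.24. The means of days 24, 28 and 35 were -0.17, -0.22 and -0.11 for Ctla2a and -0.20, -0.29 and -0.050 for Ctla2b.

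**Figure D1:**
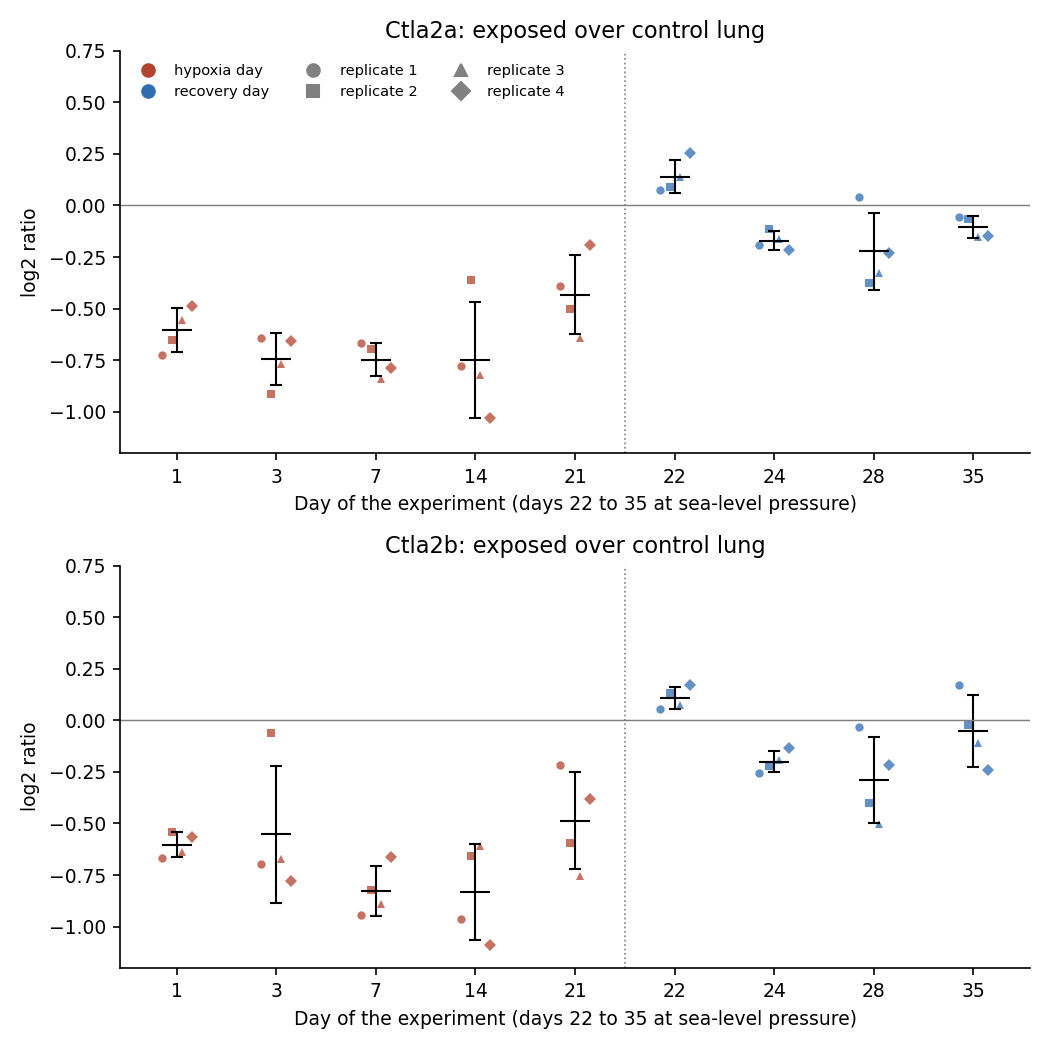
Log2 ratio of exposed over control lung (vertical axis) by day of the experiment (horizontal axis, days evenly spaced and not to scale) for Ctla2a above and Ctla2b below; symbols are single arrays shaped by replicate number, and black bars are the mean and SD of 4 arrays. All 20 hypoxia arrays lie below 0 for both genes and all 4 arrays of day 22 lie above it.

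In order from low to high, the days of Ctla2a were 14, 7, 3, 1, 21, 28, 24, 35 and 22, and those of Ctla2b were 14, 7, 1, 3, 21, 28, 24, 35 and 22. Among neighbours in these orders the arrays overlapped at every step but 1, the step between days 35 and 22 for Ctla2a, where a gap of 0.13 separated them. The days thus formed a gradual order within which no neighbouring days stood apart beyond their spread, other than day 22 for Ctla2a.

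Over the hypoxia phase Ctla2a averaged -0.66 ± 0.14 (SD over days, n = 5) and over recovery -0.09 ± 0.16 (n = 4), which correspond to 0.635 and 0.939 of the control, or to 1.58 and 1.06 with the sign turned. Ctla2b averaged -0.66 ± 0.16 in hypoxia and -0.11 ± 0.17 in recovery, or 0.633 and 0.928 of the control (1.58 and 1.08 with the sign turned). The hypoxia mean minus the recovery mean was -0.57 for Ctla2a and -0.55 for Ctla2b. For each gene the 5 hypoxia day means lay below the 4 recovery day means, with gaps of 0.21 and 0.20, a pattern present in 381 of 12159 features (3.13 percent), a feature being a gene or an unnamed spot. Single arrays did overlap: 2 hypoxia arrays of Ctla2a and 3 of Ctla2b lay above the lowest recovery array. In the other direction, 5 recovery arrays of Ctla2a and 9 of Ctla2b lay below the highest hypoxia array. Among 8357 features with a value on all 20 hypoxia arrays, 359 (4.3 percent) were below 0 on every one of them. Among 8022 features with all values at day 22 as well, 6 (0.0748 percent) were also above 0 on all 4 arrays of that day, the pair among them. These counts use the values that chose the pair and are background only.

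The ratios were alike in the 2 pairs of replicate numbers. In replicates 1 and 2, Ctla2a averaged -0.63 ± 0.13 in hypoxia and -0.074 ± 0.12 in recovery (SD over days). In replicates 3 and 4 it averaged -0.68 ± 0.21 and -0.11 ± 0.21. Ctla2b averaged -0.62 ± 0.23 and -0.072 ± 0.18 in replicates 1 and 2, and -0.70 ± 0.12 and -0.14 ± 0.20 in replicates 3 and 4. This was not so for every gene: Cts7, a placental cathepsin gene within 500 kb of the pair, stood in hypoxia at -0.53 over replicates 1 and 2, but at 0.66 over the other replicates. The pairs of numbers were noticed in the data and are not described in the labels. The labels give no dye orientation for single arrays, and whether it differs between the pairs of numbers was not tested.

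Tests were limited to measures other than the difference between phases that chose the pair. The first is the plain mean of all 9 days, whose error is uncorrelated with that of the difference. It is built from the same day levels, so its p-values are not free of the choice of the pair. Averaged over the 9 days the exposed lungs were lower in both genes, with means of -0.40 ± 0.045 for Ctla2a and -0.41 ± 0.049 for Ctla2b (SE, log2). Ratios were below 0 on 31 of 36 arrays for each. The means join hypoxia levels of -0.66 for both genes with recovery levels of -0.09 and -0.11, and day 22 lay above the control. The means over the 9 days are 24.4 and 25.0 percent below the control, or, with the sign turned, 32.3 and 33.3 percent above it. The limma adjusted p was 0.00011 for Ctla2a and 0.00014 for Ctla2b. Of 12159 features, 19.9 percent were called lower in this test, so a call of this kind is frequent on these arrays. Genes chosen for separate phases tend to have a small spread within phases, and that spread enters these p-values.

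The second measure is the trend within each phase. Against log2 of the days of hypoxia, Ctla2a had a slope of 0.018 ± 0.038 and Ctla2b of -0.015 ± 0.044 per doubling of time (SE, limma adjusted p = 1.00 for both). Against log2 of the days at sea level the slopes were -0.069 ± 0.047 and -0.054 ± 0.054 (adjusted p = 1.00 for both). No feature passed in either trend test in limma, which gave 0.0 percent, with 333 features in hypoxia and 164 in recovery at an unadjusted p under 0.05. On the 36 arrays with the replicate number as a block, where p reflects only how arrays vary, 437 and 189 features passed. Neither gene did (limma adjusted p = 0.82 and 0.89 in hypoxia, 0.33 and 0.76 in recovery). The recovery slopes rest on day 22: without it they were 0.027 for Ctla2a and 0.063 for Ctla2b.

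Differences between days of the same phase were tested on the arrays. Day 21 minus day 7 was 0.32 ± 0.11 for Ctla2a (SE, adjusted p = 0.092) and 0.34 ± 0.13 for Ctla2b (adjusted p = 0.15). Neither passed, where 3.19 percent of 11956 features were called higher and 1.53 percent lower. With scaled arrays these differences were 0.072 and 0.065. Day 3 minus day 1 was -0.14 ± 0.11 for Ctla2a (adjusted p = 0.75) and 0.050 ± 0.13 for Ctla2b (adjusted p = 0.96), where 0.522 percent of features were called higher and 0.662 percent lower. Day 28 minus day 24 was -0.052 ± 0.11 and -0.089 ± 0.13 (adjusted p = 0.96 and 0.92), where 0.156 percent were called higher and 0.609 percent lower. Day 35 minus day 28 was 0.12 ± 0.11 and 0.24 ± 0.13 (adjusted p = 0.58 and 0.27), where 5.56 percent were called higher and 7.81 percent lower. The day 3 value of Ctla2b turned to -0.11 without replicate 2 of that day.

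The pair was then compared gene against gene. Ctla2a minus Ctla2b, taken on each array and averaged by day, was -0.0011 at day 1, -0.19 at day 3, 0.081 at day 7, 0.082 at day 14 and 0.054 at day 21. In recovery it was 0.032 at day 22, 0.029 at day 24, 0.066 at day 28 and -0.056 at day 35. The difference was above 0 on 6 of 9 days. Its mean was 0.011 ± 0.087 (SD over days, n = 9; exact two-sided sign-flip permutation test, p = 0.75, adjusted p = 0.90 over 2 tests). Shifts between -0.06 and 0.067 were compatible with that test at the 95 percent level. The hypoxia mean of the difference, 0.0050, minus its recovery mean, 0.018, was -0.013 (exact two-sided permutation test over all splits of the days into 5 and 4, p = 0.90, adjusted p = 0.90). Day 3 departed through a single array, replicate 2, where the difference was -0.85. Without that array the mean difference over the 9 days was 0.035 (adjusted p = 0.094).

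**Figure D2:**
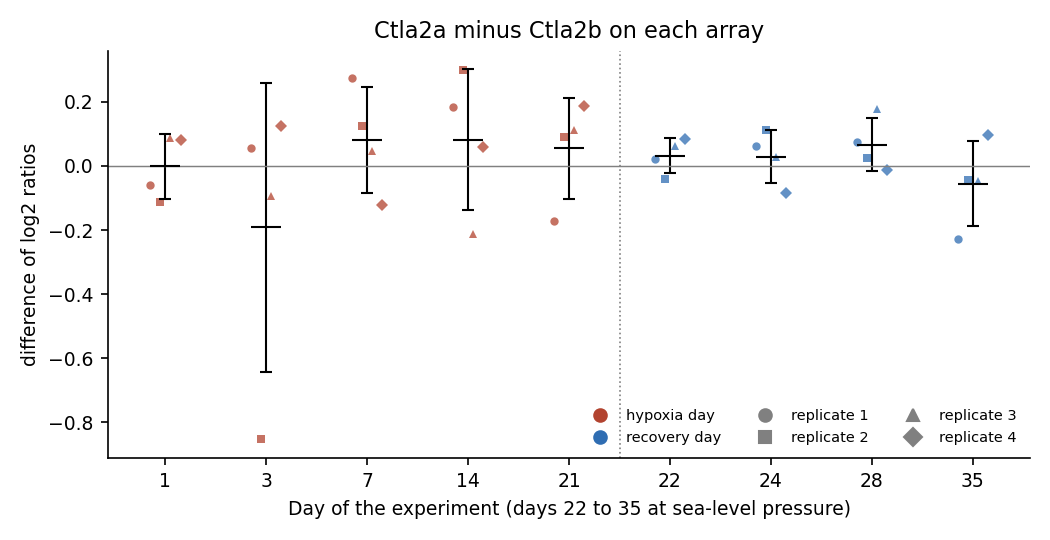
Ctla2a minus Ctla2b in log2 ratio on each array (vertical axis) by day (horizontal axis, days evenly spaced and not to scale); symbols are single arrays, and black bars are the mean and SD of 4 arrays. The day means lie between -0.19 and 0.082, and replicate 2 of day 3 lies at -0.85.

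On single arrays the ratios of the genes were correlated within phases. Over the 16 recovery arrays their ratios had a Pearson r of 0.88 (Spearman rho 0.85), and over the 20 hypoxia arrays an r of 0.40 (rho 0.45). The hypoxia arrays include replicate 2 of day 3, at -0.91 for Ctla2a and -0.061 for Ctla2b. Their r without that array was not taken. Both values also hold the course over the days of a phase, so they do not rank the phases. Deviations of arrays from their day mean, which leave out the course over days, had an r of 0.33 over 36 arrays and 0.53 without replicate 2 of day 3. Of 7555 other features with all values, 740 followed the deviations of Ctla2a at least as closely as Ctla2b did. For the deviations of Ctla2b, 801 features followed at least as closely as Ctla2a did. These are descriptions: the points share arrays, RNA pools and dyes, and the sequences of the spotted cDNAs were not used here. The genes are close paralogs, so hybridisation of 1 transcript to both spots cannot be told apart from 2 transcripts that move together.

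**Figure D3:**
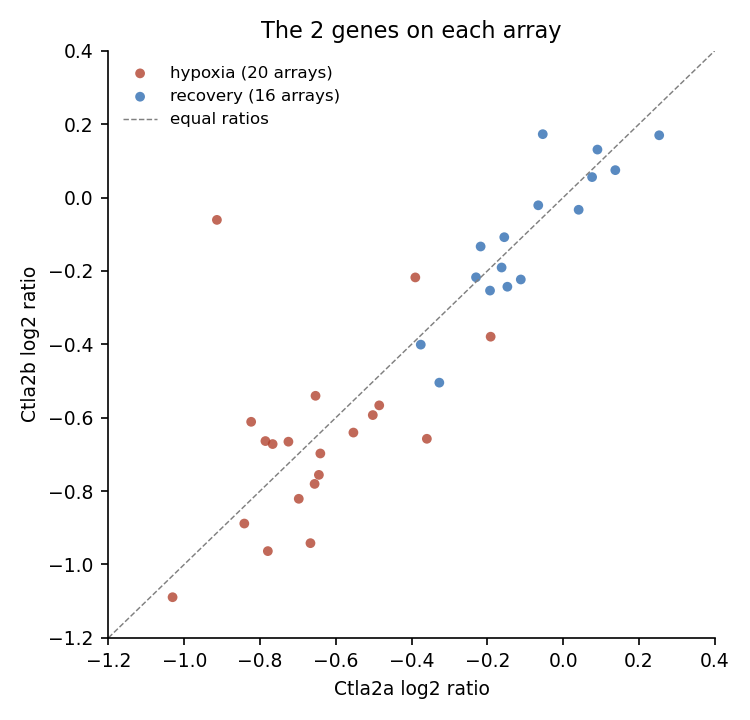
Log2 ratio of Ctla2a (horizontal axis) and Ctla2b (vertical axis) on 20 hypoxia arrays (red) and 16 recovery arrays (blue), with a dashed line where both are equal. The points scatter around the line, and replicate 2 of day 3 lies farthest from it, at -0.91 for Ctla2a and -0.061 for Ctla2b.

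The genes with the most similar course were ranked by Pearson r over the 9 day means among 6313 other named genes. Ctla2b ranked first for Ctla2a (r = 0.96), and Ctla2a ranked second for Ctla2b. For Ctla2a the next were Praf2, a membrane protein of the secretory pathway (r = 0.96), Rpe, the ribulose-phosphate epimerase of the pentose phosphate pathway (r = 0.96), Cript, a protein that binds a postsynaptic scaffold (r = 0.95), and Gpihbp1 (r = 0.95). Gpihbp1 encodes the anchor that holds lipoprotein lipase on the capillary endothelium, and it stood at -0.43 ± 0.17 in hypoxia and at -0.075 ± 0.13 in recovery. Its mean at day 22 was 0.12, above the control as for the pair. For Ctla2b the list was led by Praf2 (r = 0.98) and also held the translation factor Eif2a (r = 0.96), the heme-binding protein gene Hebp1 (r = 0.95) and the chromatin-binding protein gene Psip1 (r = 0.95). Hebp1 had ratios as low as those of the pair, with -0.73 ± 0.21 in hypoxia and -0.28 ± 0.15 in recovery. Praf2 had a similar shape at a smaller scale, at -0.15 ± 0.05 in hypoxia and 0.019 ± 0.071 in recovery. In replicates 1 and 2 alone the r values of these genes with the member they were ranked for lay between 0.80 and 0.96, and in replicates 3 and 4 alone between 0.77 and 0.98. The ranking was made on the values that chose the pair and says nothing of shared function.

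**Figure D4:**
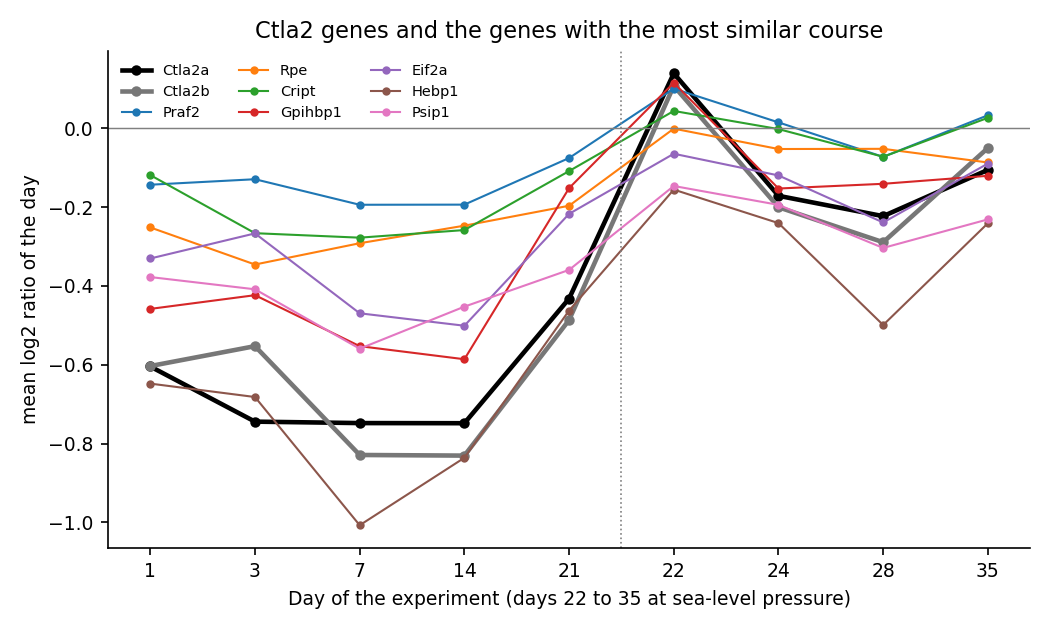
Mean log2 ratio of each day (vertical axis) by day (horizontal axis, days evenly spaced and not to scale) for Ctla2a and Ctla2b (thick lines) and the 7 genes most like them (thin lines). Praf2, Cript and Gpihbp1 share with the pair a day 22 mean above 0, and Rpe, Eif2a, Hebp1 and Psip1 are below 0 at every day.

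Cathepsin L, the protease that Ctla2a inhibits, stayed near the control in both phases. Ctsl had ratios from -0.24 to 0.14 on the hypoxia arrays (median -0.047) and from -0.14 to 0.18 on the recovery arrays (median -0.017). Its mean was -0.054 ± 0.059 in hypoxia (SD over days, n = 5, adjusted p = 0.27) and -0.0054 ± 0.039 in recovery (n = 4, adjusted p = 0.94), and its 2 spots were alike. The arrays of the phases overlapped. Among 8 measured cysteine cathepsins and related proteases of 19 listed, 1 was higher and 1 lower in the hypoxia phase, against 24.7 and 17.7 percent of all 12159 features. Lgmn, the asparaginyl endopeptidase legumain, was higher at 0.18 ± 0.09 (adjusted p = 0.025), and Ctsc, which activates granule proteases, was lower at -0.16 ± 0.06 (adjusted p = 0.027). The Lgmn call was lost with arrays centred on their median (adjusted p = 0.052), with scaled arrays (adjusted p = 0.091) and in replicates 3 and 4 alone (adjusted p = 0.14), and that of Ctsc in replicates 3 and 4 alone (adjusted p = 0.14). In recovery none of the 8 passed in limma (2 at an unadjusted p under 0.05), against 1.65 percent of features higher and 3.12 percent lower. The median of the 8 was 0.011 in hypoxia and 0.0039 in recovery, beside 0.026 and 0.023 over all features. Cts7 and Cts8, the only other measured genes within 500 kb of the pair, stood at 0.063 ± 0.16 and -0.042 ± 0.15 in hypoxia and at 0.17 ± 0.08 and 0.020 ± 0.068 in recovery, and none of these passed. These averages combine replicate pairs that were called in opposite directions in hypoxia. Cts7 was lower in replicates 1 and 2 (-0.53, adjusted p = 0.0015) and higher in replicates 3 and 4 (0.66, adjusted p = 3.1e-05). Cts8 was likewise lower in the first pair (-0.37, adjusted p = 0.0073) and higher in the second (0.28, adjusted p = 0.010). In recovery Cts7 had -0.22 in the first pair (adjusted p = 0.19) and was higher in the second (0.56, adjusted p = 0.0042), and it passed as higher with scaled arrays (0.21, adjusted p = 0.011).

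Of the aspartic and serine cathepsins, Ctsa and Ctsd were measured among 4 listed and passed in neither phase. Ctsa stood at -0.14 ± 0.10 in hypoxia (adjusted p = 0.076) and -0.12 ± 0.18 in recovery, with a call as lower in both phases in replicates 3 and 4 alone (-0.29 and -0.23), and the 4 spots of Ctsd disagreed, with hypoxia means from -0.34 to 0.15. Ctsd too was called lower in hypoxia in replicates 3 and 4 alone (-0.29, adjusted p = 0.010). Of other inhibitors of cysteine proteases, none of 3 tested among 18 listed was called lower. The shares over all features were 24.7 percent higher and 17.7 percent lower in hypoxia, and 1.65 and 3.12 percent in recovery. Cstb, the cytosolic inhibitor cystatin B, was higher in hypoxia at 0.18 ± 0.16 (adjusted p = 0.020) and in recovery at 0.26 ± 0.06 (adjusted p = 0.043). In replicates 3 and 4 alone it passed in neither phase (adjusted p = 0.43 and 0.48), and with scaled arrays not in hypoxia (adjusted p = 0.065). Cst3, the secreted inhibitor cystatin C, had 0.082 ± 0.25 in hypoxia and 0.22 ± 0.08 in recovery, and Cst12 had 0.0043 ± 0.10 and -0.051 ± 0.042. With scaled arrays Cst3 passed as higher in recovery (0.26, limma adjusted p = 0.033). Stfa1, a stefin of granulocytes, stood at -0.59 in hypoxia and -0.55 in recovery, but had a value on 20 of 36 arrays and was not tested.

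Endothelial genes, measured because Ctla2a is known from that cell type, went both ways. Of 31 listed, 8 were measured, of which 3 were higher and 2 lower in the hypoxia phase. Over all 12159 features 24.7 percent were higher and 17.7 percent lower. The median of the 8 was 0.094 against 0.026 over all features. The junction genes Cdh5 (0.27 ± 0.10) and Gja4 (0.48 ± 0.20) and the sialomucin gene Emcn (0.66 ± 0.25) were higher, and the endothelin receptor gene Ednrb (-0.66 ± 0.22) and the lectin gene Cd93 (-1.29 ± 0.43) were lower, with limma adjusted p from 0.00034 for Ednrb to 0.0024 for Cdh5. The Gja4 call was lost in replicates 3 and 4 alone (0.23, adjusted p = 0.065). In recovery Emcn was higher at 0.55 ± 0.42 (limma adjusted p = 0.045), and the others did not pass. Over all features 1.65 percent were higher and 3.12 percent lower in recovery. With scaled arrays Ednrb (-0.46, adjusted p = 0.0084) and Cd93 (-0.70, adjusted p = 0.032) were lower in recovery too, and Cd93 also in replicates 3 and 4 alone (-0.79, adjusted p = 0.019). Ednrb had in hypoxia the same mean as the pair to 2 decimals and stood at -0.33 ± 0.28 in recovery. The means of the 8 genes in hypoxia thus lay between -1.29 for Cd93 and 0.66 for Emcn. Their part in the result for the pair was not tested.

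Markers of the other cells in which the genes were first found were few. Of 27 listed for T and NK lymphocytes only Cd247, the zeta chain of the T cell receptor complex, was measured, at -0.052 ± 0.045 in hypoxia and -0.069 ± 0.024 in recovery, and it did not pass in either. Of 12 for mast cells and basophils 2 were measured. Over all features 24.7 percent were called higher and 17.7 percent lower in hypoxia, and 1.65 and 3.12 percent in recovery. Kit, the stem cell factor receptor, was lower in hypoxia (-0.35 ± 0.12, adjusted p = 0.00098) and in recovery (-0.31 ± 0.17, adjusted p = 0.038), but 1 of its spots carried this, with hypoxia means of -0.67 and -0.033 for its 2 spots. Hdc, which makes histamine, was higher in hypoxia at 0.17 ± 0.16 (adjusted p = 0.044), a call that was lost in 4 of 5 alternatives. The 3 spots of Hdc disagreed, with hypoxia means of -0.055, 0.26 and 0.32. The part of these markers in the result for the pair was not tested. In the difference between the phases none of the 24 genes of these 6 lists passed in limma (4 at an unadjusted p under 0.05), where 0.0329 percent of all features were higher and 0.0 percent lower. In replicates 1 and 2 alone Gja4 passed there as higher in hypoxia (0.67, limma adjusted p = 0.039).

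**Figure D5:**
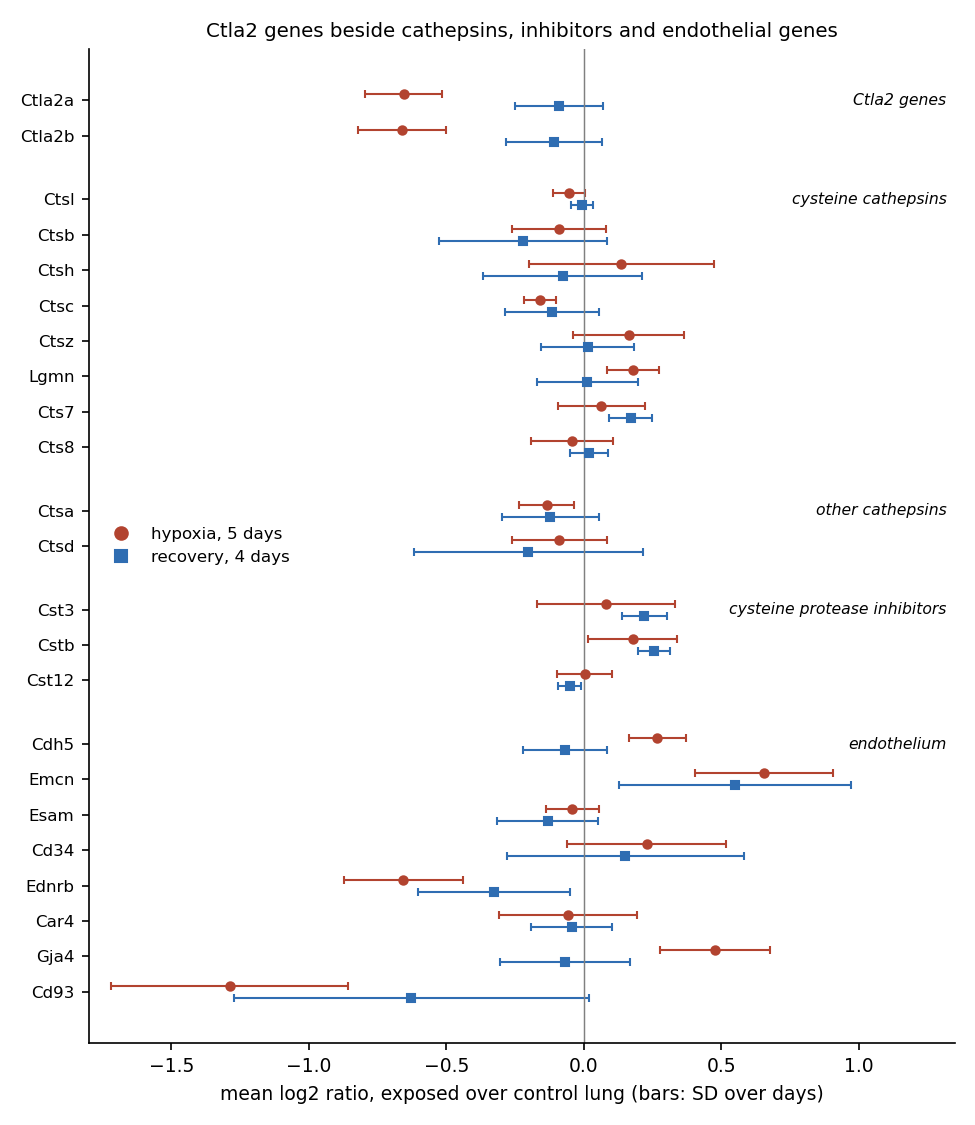
Mean log2 ratio of exposed over control lung (horizontal axis, bars are the SD over days) for the pair and for measured cathepsins, inhibitors and endothelial genes (rows), with hypoxia (red circles, 5 days) above recovery (blue squares, 4 days). Ctla2a and Ctla2b stand near -0.66 in hypoxia and near -0.1 in recovery, whereas Ctsl stays near 0 in both.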

How the data were processed

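The authors deposited log2 ratios of 2-colour cDNA arrays. Per the labels' protocols, slides were read with a GenePix 4000A scanner and GenePix Pro 4.0, background was corrected, poor spots were removed and ratios of median intensities were normalised by lowess. No dye swap is recorded in the labels, and signal over background was not used here. The deposited log2 values were used unchanged, with removed spots left empty. Spots were named through the platform annotation (9598 with 1 symbol, 514 with several, 5276 with none; 9510 matched RefSeq by Entrez identifier), and spots of a gene were averaged, giving 12761 features. Array medians lay between -0.016 and 0.050, and array SDs between 0.17 and 0.52.

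Fits used limma 3.58.1 in R 4.3.3 (lmFit, eBayes, two-sided, Benjamini-Hochberg adjustment over all features, threshold 0.05). Means, phases and trends were fitted on 9 day means (features with at least 2 arrays at each day), since the labels do not say whether arrays of a day used separate pools. Day contrasts were fitted on 36 arrays (at least 3 at both days), so p reflects only how arrays of a day vary. The difference between the genes was tested by exact permutation over the days. The like genes are the 5 with the highest r for each member, with a symbol that is no placeholder and at least 3 arrays at every day. List genes were named if they passed in a phase, up to 6 a list by lowest p, otherwise the 2 lowest by p, with measured genes within 500 kb; Ctsl, Cst3, Cst12 and Stfa1 fall outside this rule and were added with their values known. The limma fits without the replicate number as a block were first run on simulated data. Set shifts were scored there only for the mean of the 9 days and for day 21 minus day 7. Promoters were aligned with Biopython 1.88. The genes, lists and tests were chosen with earlier results of these data known. Alternatives were other scalings, replicates or days left out, all 4 arrays required and the replicate number as a block.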

Additional observations from a re-analysis of the deposited data

Results flagged for a closer look

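Ctla2b in replicate 2 of day 3, at -0.061, lay far from the other arrays of its day, which were between -0.78 and -0.67. It was the only such array among 27 sets of 4 arrays examined (9 days of each gene and of their difference), of which chance alone would mark about 5 percent. On the same array Ctla2a was at -0.91. Without it the Ctla2b mean over the 9 days was -0.43 (limma adjusted p = 0.00013) and hypoxia minus recovery was -0.59.

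At day 22 both genes were above the control on all 4 arrays, with means of 0.14 for Ctla2a and 0.11 for Ctla2b, whereas all 20 hypoxia arrays were below it. The difference between day 22 and the hypoxia days was not tested, because the pair was chosen on the contrast of these phases.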

How the results depend on the processing

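The means of Ctla2a and Ctla2b over the 9 days kept their sign and their call under all 20 alternatives for each gene, from -0.47 to -0.36 for Ctla2a and from -0.48 to -0.36 for Ctla2b, with adjusted p up to 0.00098 and 0.00091. These means are built from the day levels that chose the pair. Their calls under the alternatives, the block included, are therefore not free of that choice. The described difference between phases lay between -0.62 and -0.43 for Ctla2a and between -0.61 and -0.43 for Ctla2b. It was lowest in size with scaled arrays. Each gene had 1 spot, so treating spots singly changed nothing. Without single replicates the means ranged from -0.42 to -0.39 and from -0.44 to -0.39.

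No trend, day contrast or difference between the genes passed under any alternative run, and those near 0 changed sign; the cause was not tested. The hypoxia trend of Ctla2a was -0.019 in replicates 3 and 4 and -0.037 without day 21, and that of Ctla2b was 0.0013 with scaled arrays and 0.0084 without day 14. The recovery trends without day 22 were 0.027 and 0.063. Day 3 minus day 1 was 0.063 for Ctla2a with scaled arrays and -0.12 for Ctla2b in replicates 3 and 4. Day 28 minus day 24 was 0.018 for Ctla2a with scaled arrays and 0.021 for Ctla2b in replicates 1 and 2. The mean of Ctla2a minus Ctla2b was -0.010 in replicates 1 and 2, and its hypoxia minus recovery value was 0.0032 with scaled arrays, 0.036 without day 3 and 0.0032 without day 28. Leaving out single replicates gave ranges of 0.00036 to 0.035 (Ctla2a) and -0.031 to 0.00087 (Ctla2b) for the hypoxia trends. For day 28 minus day 24 of Ctla2a the range was -0.15 to 0.019. The trends were not fitted without replicate 2 of day 3 alone. With that alternative included, day 3 minus day 1 of Ctla2b ranged from -0.11 to 0.14. The mean of the difference between the genes then ranged from -0.0011 to 0.035, and its hypoxia minus recovery value from -0.042 to 0.031. The alternative without replicate 2 of day 3 was added after seeing the data.

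Arrays with the same replicate number shared deviations from their day means, with a median r of 0.38 between days against -0.24 for other numbers. Within the 4 day contrasts 15 of 16 same-numbered pairs were above 0.1 and 1 was at -0.052, and 15 of 36 arrays correlated best with their own number. Since not every pair was above 0.1 and no label ties the numbers to a shared source, the fits were made without the block. With the replicate number as a block, on 36 arrays, the means stayed at -0.40 (limma adjusted p = 3.1e-14) and -0.41 (adjusted p = 1.5e-12). Day 21 minus day 7 had adjusted p = 0.063 and 0.10, and no trend or day contrast of the pair passed. The arrays of a day may share a pool, so in these block fits p reflects only how arrays vary. Calls over all features were 1040 with the block and 564 without it for days 21 and 7, 295 and 143 for days 3 and 1, 330 and 93 for days 28 and 24, 2458 and 1631 for days 35 and 28, and 437 and 0, and 189 and 0, for the hypoxia and recovery trends.

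Of 12159 features, 580 were called in recovery (201 higher, 379 lower). Scaled arrays gave 1432 higher and 1768 lower, replicates 1 and 2 gave 563 higher, and replicates 3 and 4 gave 914 higher and 695 lower. Between phases 4 were higher; the counts were 2 with scaled arrays, 12 higher and 22 lower in replicates 1 and 2, 2 higher in replicates 3 and 4, and 2 lower with all 4 arrays required. The number of arrays limits the precision, and signal over background was not used here.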
